A study of Mus musculus with 2 samples.

Results

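The skeletal muscle sarcomere genes are 35 genes of the contractile apparatus of striated muscle and of the cells that build it. They were taken by name from the gene probes of 2 arrays that compared ureters of Rbpj-cKO and control mouse pups at postnatal day 4. They had 52 of the 39429 gene probes, and 23 of them were measured well enough to enter a test across 21150 genes. By their known use they were divided into 11 genes of fast fibres, 7 of slow fibres, 3 of embryonic and perinatal muscle, 9 common to fibre types and 5 for myogenic regulators. The series asked which transcripts differ between dissected ureters with and without Rbpj in the Tbx18 lineage. Each array held 1 Rbpj-cKO RNA, from Tbx18(cre/+);Rbpj(fx/fx) animals, and 1 control RNA, from Tbx18(+/+);Rbpj(fx/n.d.) animals, all of the NMRI strain. Both RNAs were labelled female on array 1 and male on array 2, where the dyes were exchanged.

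The deletion was driven by cre from the Tbx18 locus, which is active in the mesenchyme around the ureteric epithelium, the source of the smooth muscle and fibroblasts of the ureter wall. The controls lacked the cre allele and carried 1 floxed Rbpj allele, the other being given only as n.d. in the label, so genotype at Tbx18 changes along with Rbpj. How many animals each RNA came from, and any pooling, are not stated in the sources used here. The p-values therefore rest on these 2 pairs only. In limma the spread between the pairs is drawn toward one pooled over all genes tested, with 1 residual and 4.37 total degrees of freedom. The 95% intervals given below use that spread and the total degrees of freedom, not the SD of the 2 pairs alone. Labelled sex, dye orientation and pair cannot be told apart.

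Rbpj binds DNA and carries the signal of activated Notch receptors to their target genes. In skeletal muscle, Notch signalling is known for holding Pax7-positive stem cells undifferentiated. Striated muscle contracts through sarcomeres, in which filaments of myosin pull on filaments of actin under the control of the calcium-sensing troponin complex. Fast and slow fibres use different genes for the same parts, and embryonic and perinatal myosins precede both. The ureter wall contracts with smooth muscle, which has its own myosin and actin genes and no sarcomeres. Several slow fibre genes, among them Myh7, Myl2, Myl3 and Tnnc1, are also the genes of heart muscle.

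Each probe is a DNA of 60 bases whose capture of labelled RNA gives the signal, so its sequence sets which family member it reads. The following were chosen because ratios described below were read on them, with the Myh3 probe for comparison, and they are given 5′ to 3′ with the coordinates of the files (mm9). The Mybpc1 probe lies at chr10:87985807-87985866 on the minus strand, the dimmer of that gene's 2 probes. The Ckm probe reaches from chr7:20002222 to chr7:20004829 on the plus strand, a span of 2608 bases for its 60, so it joins stretches that are apart in the genome. The Casq1 probe likewise reaches from chr1:174140602 to chr1:174142105 on the minus strand. The Myh8 probe lies at chr11:67121925-67121984 and the Myh3 probe at chr11:66915107-66915166, both on the plus strand, and in this pair capitals mark the bases that match in their best alignment without gaps.
Mybpc1: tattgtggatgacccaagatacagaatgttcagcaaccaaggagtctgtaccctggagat
Ckm: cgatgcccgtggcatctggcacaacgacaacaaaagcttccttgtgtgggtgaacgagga
Casq1: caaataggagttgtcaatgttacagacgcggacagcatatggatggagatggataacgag
Myh8: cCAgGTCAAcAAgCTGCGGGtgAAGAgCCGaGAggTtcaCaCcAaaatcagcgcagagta
Myh3: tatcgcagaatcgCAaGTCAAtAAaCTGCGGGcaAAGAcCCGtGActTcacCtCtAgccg
The perinatal and embryonic myosin probes matched at 29 of 48 aligned bases (60.4%), with 19 mismatches. The longest stretch that the Myh8 probe shared with a probe of any other gene was 12 bases. For the Ckm and Casq1 probes it was 14 bases and for the Mybpc1 probe 13. These runs compare probes with probes, which may lie at different positions of related transcripts. Whether a probe also captures RNA of another family member, such as another myosin heavy chain, was not tested. Whether a probe lies in coding sequence or in a UTR was not determined here.

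A ratio is the log2 of the Rbpj-cKO signal over the control signal on an array, below 0 where Rbpj-cKO was lower, and errors are SDs between the arrays (n = 2). A level is the normalized log2 signal of a probe in 1 RNA, and levels are compared within a probe only. The targeted gene Rbpj had ratios of -0.92 and -1.10 on arrays 1 and 2 (mean -1.01 ± 0.13, SD, n = 2; limma adjusted p = 0.0853). Its probe was not placed relative to the floxed segment, so these values do not check the labels. Tbx18 stood at 0.16 and 0.01 (mean 0.08 ± 0.11). On array 1, labelled female, the Y-linked genes Ddx3y and Eif2s3y, chosen after their values were seen, were higher in the library labelled Rbpj-cKO by 4.23 and 4.27 on the log2 scale. Xist, chosen in the same way, had levels of 12.82 in control and 12.96 in Rbpj-cKO RNA there. That library thus held X-inactivation and Y-linked transcripts together, which goes against its label for RNA of females alone, so every ratio of array 1 rests on a library whose make-up is not settled. On array 2 the fetal liver gene Afp was high in the control RNA (level 13.15), with a ratio of -4.14 there and of 0.95 on array 1. The values of each array are therefore given below beside the means. In RNA of whole tissue, fewer muscle cells and less RNA per muscle cell cannot be told apart.

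Mybpc1, the myosin-binding protein C of slow fibres, was 4.28-fold higher in the Rbpj-cKO RNA, while Myh8, Tnnc2 and Ckm were lower and most other sarcomere genes differed less. No member passed the adjusted threshold of 0.05 in limma, which 0.00473% of all genes did (1 of 21150). At an unadjusted p under 0.05, 7 of the 23 tested members were lower (30.4%), against 7.03% of all genes, and 3 were higher (13.0%), against 6.99%. Counted by size instead, 3 members, Ckm, Myh8 and Tnnc2, were lower by 1.5-fold or more on both arrays (13.0%), against 0.794% of all genes. Higher by as much on both arrays was 1 member, Mybpc1 (4.35%), against 0.402%. Of any size, 11 members were lower on both arrays (47.8%), against 29.7% of all genes, and 7 were higher on both (30.4%), against 31.8%. Among these, Myog (higher) passed the filter on dim probes only through the Rbpj-cKO RNAs, and Xirp1 (lower) only through the control RNAs, so their directions were favoured by the filter. The median ratio of the 23 members was -0.16 on array 1 and -0.09 on array 2, against -0.01 and 0.01 over all genes. With limma's trended prior and robust settings, the adjusted p fell under the threshold for 3 members, Myh8 (0.0278), Ckm (0.0289) and Tnnc2 (0.0330), as it did for 100 of all genes.

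**Figure D1:**
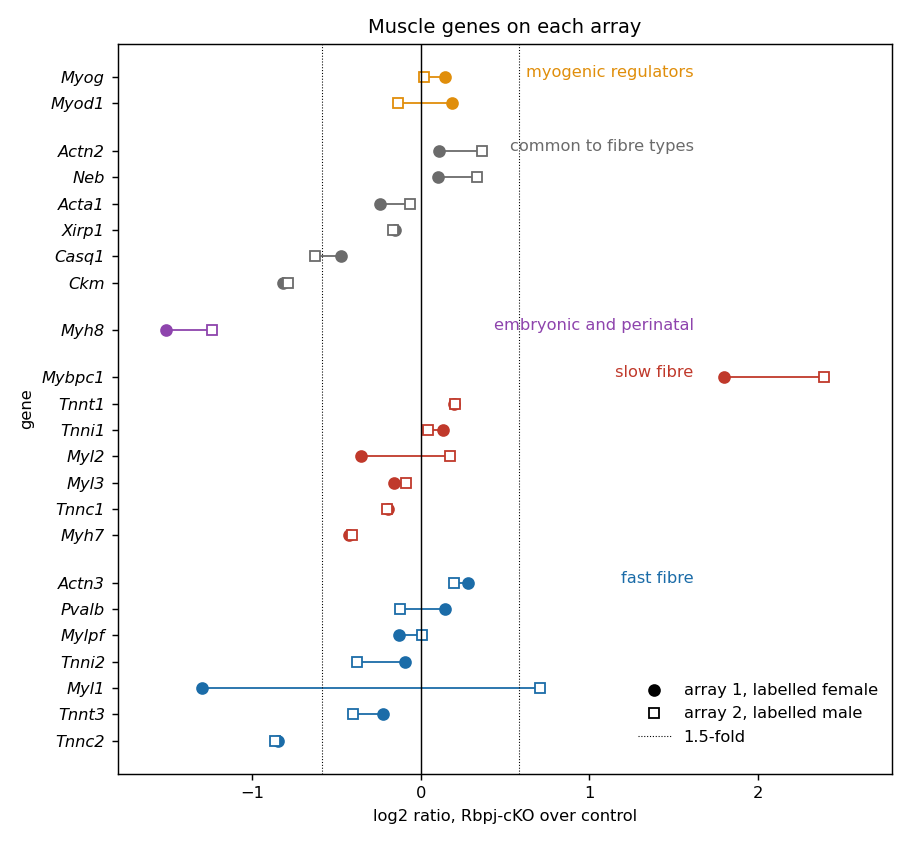
Log2 ratio of Rbpj-cKO over control for the 23 tested members, with array 1 as a filled circle and array 2 as an open square, joined by a line and coloured by group. Mybpc1 stands alone to the right at 1.80 and 2.40, Myh8 lies farthest to the left on both arrays, and Myl1 spans from -1.30 to 0.71.

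Mybpc1 encodes the slow form of a protein that binds myosin and titin in the thick filament. Its brighter probe had levels of 8.28 and 7.93 in the control RNAs of arrays 1 and 2, and of 10.08 and 10.33 in the Rbpj-cKO RNAs. Both Rbpj-cKO levels thus lay above both control levels. The ratios were 1.80 and 2.40, with a mean of 2.10 ± 0.42 (SD, n = 2), a 95% interval of 1.67 to 2.53 and a limma adjusted p of 0.0819. This was the highest mean ratio among the 21150 genes tested. The second probe, printed above, gave control levels of 6.92 and 6.83, Rbpj-cKO levels of 8.26 and 8.74 and ratios of 1.34 and 1.91. The probes lie within 1 gene and read the same RNAs, so they are no replicates of each other. The SD between the 4 spots of the brighter probe was 0.11 on array 1 and 0.02 on array 2, below the gap between the arrays. The fast counterpart Mybpc2 was dim, with levels of 6.99 and 6.63 in control and 6.75 and 6.70 in Rbpj-cKO RNA, and was not tested. Mybph, a smaller relative of these proteins, was not well above background in any RNA, at levels of 6.28 to 6.35.

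**Figure D2:**
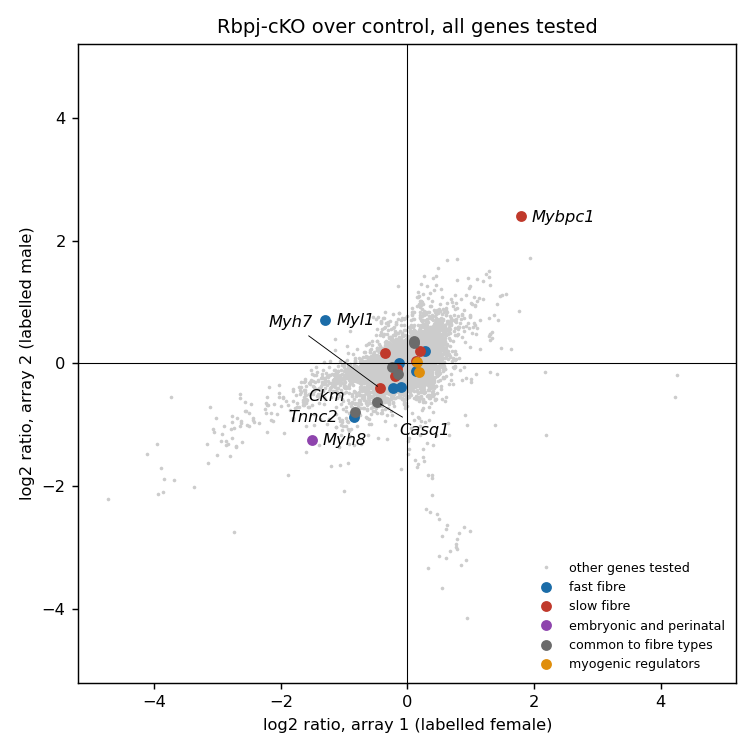
Log2 ratio on array 1 (x axis) against array 2 (y axis) for all 21150 genes tested, grey, with the 23 sarcomere and regulator genes coloured by group. Mybpc1 stands at 1.80 and 2.40, away from the other members, most of which lie close to 0 on both axes.

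Among the myosin heavy chains, the motor proteins of the thick filament, the perinatal gene Myh8 had the lowest ratio of all members. Its levels were 10.39 and 10.10 in the control RNAs and 8.88 and 8.86 in the Rbpj-cKO RNAs, so both Rbpj-cKO levels lay below both control levels. The ratios were -1.51 and -1.24 (mean -1.38 ± 0.19, SD, n = 2; 95% interval -1.64 to -1.12; limma adjusted p = 0.0819), which puts the Rbpj-cKO level at 38.5% of control. This rests on 1 of 4 Myh8 probes, since the other 3, placed at lower coordinates from chr11:67093475 on, were not well above background in any RNA. The embryonic gene Myh3 was dim. Its better probe, a different one from that printed above, stood highest at 7.12, in the control RNA of array 1, and was well above background on array 1 only.

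The slow heavy chain Myh7, shared with heart ventricle, had levels of 9.63 and 9.83 in control and 9.20 and 9.43 in Rbpj-cKO RNA. Its ratios of -0.43 and -0.41 were close to each other (mean -0.42 ± 0.01, SD, n = 2; 95% interval -0.61 to -0.22), but it did not pass the test across all genes (limma adjusted p = 0.177). The adult fast heavy chains Myh1, Myh2 and Myh4 were near background. Myh1 had a level of 7.89 in the control RNA of array 1, on all 4 spots, against 6.61, 6.32 and 6.23 in the other RNAs, where no spot was well above background. Myh2 was well above background in the same control RNA alone, on 3 of 4 spots, at levels of 6.22 to 6.72. Myh4 was not well above background in any RNA, at 6.38 to 6.74.

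The myosin light chains, which sit on the neck of the heavy chain, had no common direction. Myl1, a light chain of fast fibres, was lower in the Rbpj-cKO RNA on array 1 and higher on array 2. Its levels were 10.88 in control and 9.58 in Rbpj-cKO RNA on array 1, and 8.58 and 9.29 on array 2. The ratios of -1.30 and 0.71 (mean -0.29 ± 1.42, SD, n = 2; limma adjusted p = 0.855) differed by far more than the spots of the probe, whose SD was 0.05 and 0.15. Among all genes, 0.104% were at least 1.5-fold changed in opposite directions. The second Myl1 probe was dimmer and also highest in the control RNA of array 1, at 7.14 against 6.54 to 6.66, with ratios of -0.48 and 0.11. Mylpf, the fast regulatory light chain, stood at -0.13 and 0.01. The slow and ventricular light chains stood at -0.35 and 0.17 for Myl2 and at -0.16 and -0.09 for Myl3.

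The troponins switch the thin filament on when calcium binds, and only the fast troponin C gene was at least 1.5-fold changed on both arrays. Tnnc2, the calcium sensor of fast fibres, had levels of 11.28 and 11.15 in control and 10.43 and 10.28 in Rbpj-cKO RNA. Its ratios were -0.85 and -0.87 (mean -0.86 ± 0.01, SD, n = 2; 95% interval -1.05 to -0.66; limma adjusted p = 0.0853), or 55.2% of control. Tnnc1, the slow and cardiac counterpart, stood at -0.19 and -0.20 (limma adjusted p = 0.352). The fast tropomyosin-binding subunit Tnnt3 stood at -0.23 and -0.40 on its brighter probe and at -0.31 and -0.34 on its other. Tnnt1, the slow subunit of the same kind, stood slightly higher in the Rbpj-cKO RNA, at 0.20 and 0.20, and at 0.21 and 0.33 on its second probe. The inhibitory subunits were at -0.09 and -0.38 for the fast gene Tnni2 and at 0.13 and 0.04 for the slow gene Tnni1. None of these 5 other troponin genes passed the test, with limma adjusted p-values from 0.268 for Tnnt3 to 0.692 for Tnni1.

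**Figure D3:**
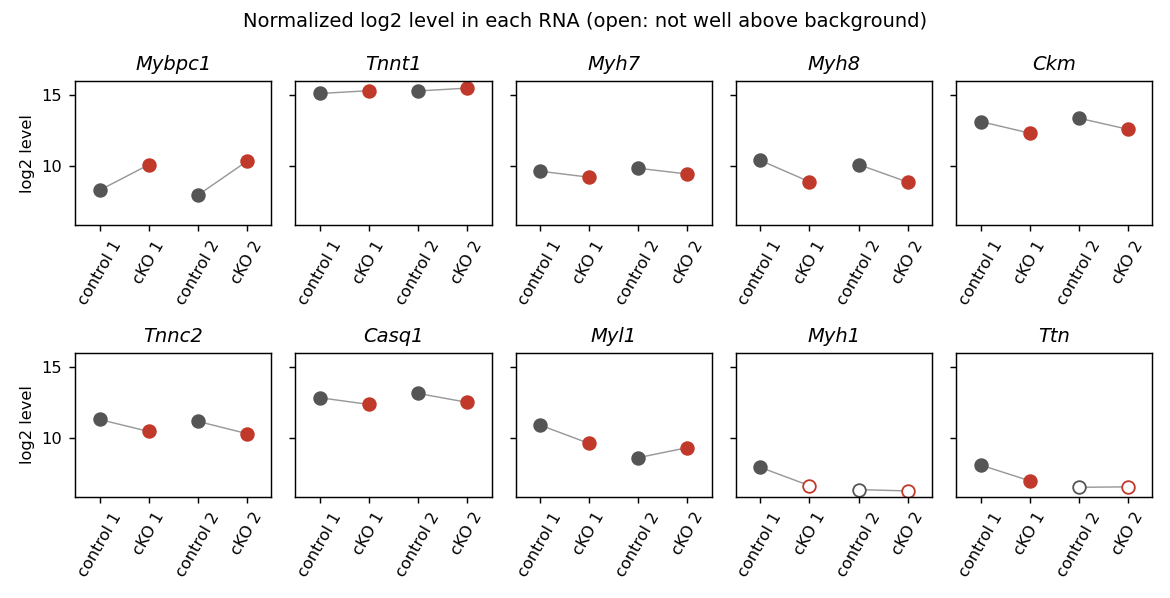
Normalized log2 level of 10 members in the control (grey) and Rbpj-cKO (red) RNA of arrays 1 and 2, with the RNAs of an array joined by a line and open symbols where the probe was not well above background. Mybpc1 is higher and Myh8, Ckm, Tnnc2 and Casq1 are lower in Rbpj-cKO on each array, while Myl1, Myh1 and Ttn are highest in control 1. The heights of different genes depend on the probe and are not comparable.

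Ckm encodes the creatine kinase that restores ATP at the sarcomere. Its levels were 13.14 and 13.38 in the control RNAs and 12.32 and 12.59 in the Rbpj-cKO RNAs. The ratios were -0.82 and -0.79 (mean -0.80 ± 0.02, SD, n = 2; 95% interval -0.999 to -0.61; limma adjusted p = 0.0878), which is 57.3% of control. Casq1, the calcium store of the sarcoplasmic reticulum, came closest to the 1.5-fold limit among members that missed it with 1 sign on both arrays. Its levels were 12.82 and 13.12 in control and 12.34 and 12.49 in Rbpj-cKO RNA, its ratios -0.48 and -0.63, and its mean -0.55 ± 0.11 (SD, n = 2; limma adjusted p = 0.144). Pvalb, a calcium buffer of fast fibres, stood at 0.14 and -0.12.

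The genes of the actin filament and its anchors had small ratios. Acta1, skeletal actin, was bright in every RNA, at levels of 15.45 and 15.41 in control and 15.21 and 15.34 in Rbpj-cKO RNA. Its ratios of -0.24 and -0.07 gave a mean of -0.15 ± 0.12 (SD, n = 2), whose 95% interval of -0.38 to 0.07 includes 0. The Z-disc actinins were higher in the Rbpj-cKO RNA of both pairs, Actn2 by 0.11 and 0.36 and the fast fibre gene Actn3 by 0.28 and 0.20. Neb, the ruler of the thin filament, was higher by 0.10 and 0.33. None of these 3 genes passed the test, with limma adjusted p-values of 0.305 to 0.402. Xirp1, an actin-binding repeat protein, stood at -0.16 and -0.17 and was not well above background in the Rbpj-cKO RNA of array 1.

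Titin, the giant spring between Z-disc and thick filament, was read by 4 probes, of which 3 were not well above background in any RNA. The remaining Ttn probe was well above background in both RNAs of array 1, at 8.06 in control and 6.95 in Rbpj-cKO RNA, but in neither RNA of array 2, at 6.49 and 6.52. Its ratios were -1.11 and 0.03, and it was not tested. Myh1, Ttn and Myl1 thus shared a highest level in the control RNA of array 1.

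The myogenic regulators, the transcription factors that set up the muscle programme, were dim or at background. Pax7, the marker of muscle stem cells, had levels of 6.48 to 6.63 and was not well above background in any RNA. The same held for Myf5 (6.23 to 6.32) and Myf6 (6.49 to 6.66). Myog, which drives terminal differentiation, was above background in both Rbpj-cKO RNAs and in neither control RNA. It passed the filter on dim probes only through the Rbpj-cKO RNA, so its direction is no support for a difference. Its levels were 6.64 and 6.66 in control and 6.79 and 6.68 in Rbpj-cKO RNA. The mean ratio of Myog was 0.08 ± 0.09 (SD, n = 2), with a 95% interval of -0.13 to 0.29 that spans both directions. Myod1, the determination factor, was dim, at levels of 6.81 to 7.06, but counted as well above background in all 4 RNAs. Its ratios were 0.19 and -0.13. On array 2 both the ratio and that call rest on the 1 spot of 4 that had no outlier mark. The mean ratio of Myod1 was 0.03 ± 0.23 (SD, n = 2), and it turned to -0.16 with the marked spots kept and to -0.39 in the authors' deposited table. The subunits of the acetylcholine receptor at the nerve-muscle contact were also dim. Chrng, the fetal subunit, was well above background in the Rbpj-cKO RNA of array 2 alone, at 6.63, and Chrna1 was not in any RNA.

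**Figure D4:**
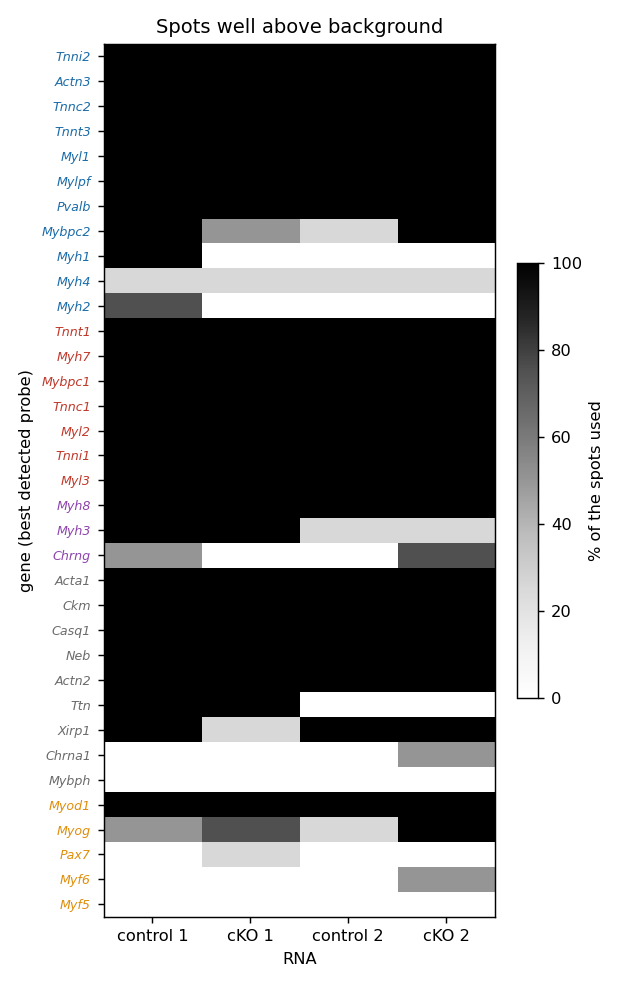
Share of the spots used that were well above background (grey scale, 0 to 100%) for the best detected probe of each of the 35 members in the 4 RNAs, with gene names coloured by group as in the plot of ratios. The 6 members that no RNA showed on more than 50% of the spots are Chrna1, Mybph, Myf5, Myf6, Myh4 and Pax7.

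Of the 35 members, 21 were well above background in all 4 RNAs, all 7 slow fibre genes among them. By RNA, 27 members were well above background in the control and 24 in the Rbpj-cKO RNA of array 1, against 22 and 25 on array 2. Over all gene spots the shares well above background were 73.1% and 72.2% on array 1 and 71.8% and 74.0% on array 2, with the control RNA of array 2 lowest there too. Those shares count single spots, whereas each member was counted once, by its best detected probe, so the 2 kinds of number are not comparable in size. Counted by probe, 31 of the 52 member probes reached that mark in control RNA 1 and 25 in control RNA 2. In the Rbpj-cKO RNAs 27 and 28 of the 52 did. Of the 12 members that were not tested, 4 were fast fibre genes, 2 embryonic and perinatal, 3 regulators and the other 3 common genes.

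Between fibre types, the median ratio differed less than between the members of a type. The 7 tested fast fibre genes had medians of -0.13 and -0.12 on arrays 1 and 2, and a median of -0.24 over their mean ratios, which ran from -0.86 for Tnnc2 to 0.24 for Actn3. The 7 slow fibre genes had medians of -0.16 and 0.04, and a median of -0.09 over their mean ratios, which ran from -0.42 for Myh7 to 2.10 for Mybpc1. Fast minus slow was 0.03 on array 1 and -0.16 on array 2, with opposite signs. In each group, 3 of 7 genes were lower on both arrays (42.9%), against 29.7% of all genes. Higher on both were 1 fast (14.3%) and 3 slow genes (42.9%), against 31.8% of all genes. The 6 tested genes common to fibre types had medians of -0.20 and -0.12, with 4 lower (66.7%) and 2 higher (33.3%) on both arrays. With 6 or 7 genes in a group, 1 gene moves these shares widely, and they were not tested. The 2 tested regulators, of which Myog passed the filter only through the Rbpj-cKO RNAs, had medians of 0.17 and -0.06, and Myh8 alone stood for the embryonic and perinatal genes.

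Mybpc1 was set apart from its own group by more than the width of that group. It exceeded the median of the other 6 slow fibre genes by 1.97 on array 1 and 2.42 on array 2. Those 6 genes had medians of -0.18 and -0.02 and mean ratios between -0.42 and 0.20. Leaving Mybpc1 out put the median of the other 22 members at -0.16 on array 1 and -0.10 on array 2. The next highest member, Actn3, had a mean ratio of 0.24 ± 0.06 (SD, n = 2; 95% interval 0.04 to 0.44; limma adjusted p = 0.305).

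The 250 bases upstream of the start were at hand for 28 of the 35 members, from RefSeq (GRCm38.p6). They are printed for Mybpc1 and for the 3 members at least 1.5-fold lower on both arrays, to set the sequence of the high gene beside those of the low ones. Capitals mark the E-box CANNTG, the motif bound by the myogenic factors and other basic helix-loop-helix proteins. The windows are chr10:88605153-88605402 (minus strand) for Mybpc1, chr11:67276874-67277123 (plus) for Myh8, chr7:19410844-19411093 (plus) for Ckm and chr2:164779735-164779984 (minus) for Tnnc2.
Mybpc1: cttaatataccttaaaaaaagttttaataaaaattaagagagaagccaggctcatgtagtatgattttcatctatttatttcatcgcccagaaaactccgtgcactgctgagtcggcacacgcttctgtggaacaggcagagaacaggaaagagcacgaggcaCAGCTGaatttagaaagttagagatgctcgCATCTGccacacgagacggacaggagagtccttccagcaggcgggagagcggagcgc
Myh8: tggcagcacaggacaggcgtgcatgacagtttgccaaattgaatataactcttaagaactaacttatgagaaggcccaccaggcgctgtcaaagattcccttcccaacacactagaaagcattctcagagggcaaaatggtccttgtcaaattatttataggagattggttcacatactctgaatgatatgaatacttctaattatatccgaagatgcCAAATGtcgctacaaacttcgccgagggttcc
Ckm: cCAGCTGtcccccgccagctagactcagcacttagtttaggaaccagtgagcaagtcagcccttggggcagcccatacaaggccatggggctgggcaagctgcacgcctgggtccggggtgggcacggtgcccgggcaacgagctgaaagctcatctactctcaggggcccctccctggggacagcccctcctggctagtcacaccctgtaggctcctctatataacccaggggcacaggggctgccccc
Tnnc2: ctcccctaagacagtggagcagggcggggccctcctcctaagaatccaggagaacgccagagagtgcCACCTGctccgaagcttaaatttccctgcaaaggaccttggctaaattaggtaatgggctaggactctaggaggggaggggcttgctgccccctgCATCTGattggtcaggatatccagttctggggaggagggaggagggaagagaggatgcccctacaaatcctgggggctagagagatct
Mybpc1 and Tnnc2 have 2 E-boxes each and Myh8 and Ckm 1 each. On either strand, CANNTG was found in 23 of the 28 member windows (82.1%), against 66.0% of 27025 windows of all genes. CAGCTG, a form counted within CANNTG, was in 11 (39.3%), against 12.8%, with Mybpc1 and Ckm among them. TGGGAA, the core letters bound by Rbpj, was in 7 (25.0%), against 21.5%, and of the 4 printed windows only that of Myh8 holds it, on the other strand. These matches describe letters in a window and are no evidence of binding.

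Of 51 further genes of the sarcomere, its membranes and muscle metabolism, 39 were tested, of which 28 were lower and 4 higher on both arrays. Over all genes these shares were 29.7% and 31.8%. The list had medians of -0.24 and -0.14. Of the 39, 5 were lower by 1.5-fold or more on both arrays (12.8%), against 0.794% of all genes. None was higher by as much, against 0.402%, and none passed the adjusted threshold in limma. Cav3, the caveolin of the muscle membrane, had the largest mean at -1.52 ± 1.01 (SD, n = 2), from -2.24 and -0.81. Myom3, an M-band protein, stood at -1.24 and -0.91, and Pgam2, a muscle enzyme of glycolysis, at -0.89 and -1.07. The summed signal of the list ran from 87915 to 97122 in the control RNAs and from 72976 to 83421 in the Rbpj-cKO RNAs.

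Marker lists of other tissues also differed between the RNAs. Their counts are read beside the 29.7% of all genes that were lower and the 31.8% that were higher on both arrays. Of 8 tested heart muscle genes, 5 were lower and 2 higher on both arrays. The atrial myosin Myh6, at -1.89 and -1.82 (mean -1.86 ± 0.05, SD, n = 2; limma adjusted p = 0.0736), was lower by more than any sarcomere member. Myl7, with the next largest mean of the list, went the other way, at 0.91 and 0.34. Nkx2-5, Nppb, Tbx20 and Mybpc3 were too dim to test. The summed signal of the tested heart genes was 175012 to 195050 in control and 139407 to 141877 in Rbpj-cKO RNA. That sum was mostly the signal of Actc1, at -0.21 and -0.38, and Tnnt2, chosen after its values were seen, at -0.18 and -0.39. Of 12 smooth muscle genes, 10 were lower on both arrays and none higher, with medians of -0.26 and -0.36, and sums of 809779 to 919697 in control and 706151 to 780270 in Rbpj-cKO RNA. The lowest were the intermediate filament genes Synm, at -1.27 and -0.98, and Des, at -0.82 and -0.65, which striated muscle also uses.

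Brown fat and adipocyte genes differed far more than the sarcomere genes. Of 12 tested, 11 were lower on both arrays, with medians of -2.74 and -1.24. Lower by at least 1.5-fold on both were 10 of them (83.3%), against 0.794% of all genes. The thermogenic gene Ucp1 was the only gene of all to pass the adjusted threshold in limma, at -2.74 on each array (adjusted p = 0.0239). The summed signal of this list was 312814 to 862076 in control and 147007 to 156895 in Rbpj-cKO RNA, highest in the control RNA of array 1. Myh1, Ttn and Myl1 were also highest there, as were Myh8 and Tnnc2. Ckm, Casq1 and Myh7 were instead highest in the control RNA of array 2, as was the summed signal of the further muscle genes (97122). Of 8 tested kidney epithelium genes, 6 were higher and 1 lower on both arrays, with medians of 1.00 and 0.25. The summed signal of that list ran the other way, at 30837 and 32199 in control and 26686 and 26515 in Rbpj-cKO RNA. That sum was mostly the signal of Aqp1, chosen after its values were seen, with control levels of 14.81 and 14.88. Aqp1 was the gene lower on both arrays, at -0.31 and -0.35. Kap, a gene of the proximal tubule, stood at 1.10 and 1.38. The 9 liver genes had medians of 0.61 and -2.66, high in the control RNA of array 2. Nerve and Schwann cell genes had medians of -0.03 and -0.12, and the 10 genes of ureter mesenchyme and urothelium, all of them measured well enough to test, 0.27 and 0.06. The part of these other tissues in the values of the sarcomere genes was not tested.

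**Figure D5:**
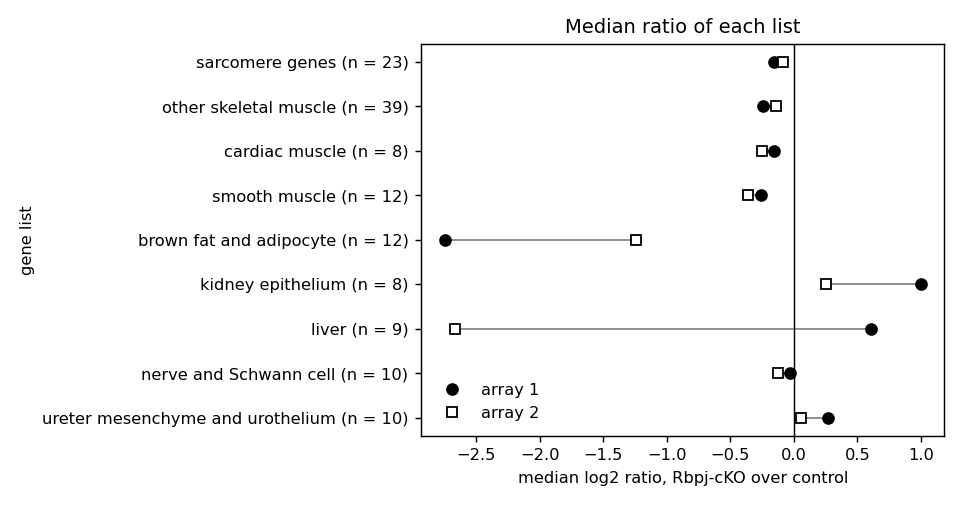
Median log2 ratio of Rbpj-cKO over control of the sarcomere genes and of 8 lists of other genes on array 1 (filled circle) and array 2 (open square), with the number of tested genes beside each name. The muscle lists lie between -0.36 and -0.09, and the brown fat list at -2.74 and -1.24.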

How the data were processed

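RNA of 4 ureter samples was read on 2 Agilent 2-colour arrays, with 4 spots for each of 39429 gene probes. The deposited spot values are fluorescence intensities from Agilent Feature Extraction 10.7.3.1, per the submitters' processing notes. The deposited log ratio, per the file headers, is the log10 of the red processed signal over the green. The authors' deposited table of the series holds a score, read as a signed fold change and used as an alternative only, since the sources used here do not say how it was made. Mean signals were corrected with normexp (offset 50, local background medians) and loess was run within arrays. Spots with an outlier mark were dropped (3.34% and 3.12%), spots of a probe averaged and ratios turned to Rbpj-cKO over control. Probes were kept where, for at least 1 genotype, over 50% of the spots on each array were well above background, and a gene was represented by its brightest such probe. Levels were scaled between arrays by Aquantile. Names were matched by accession to RefSeq (28328 probes). Ratios were tested against 0 with limma 3.58.1 in R 4.3.3 (lmFit, eBayes, two-sided, 4.37 total degrees of freedom), with Benjamini-Hochberg adjustment at 0.05 over 21150 genes. The procedure was tested on simulated data. The number of arrays limits the precision. The members and lists were chosen with earlier results of these data known. Named are the members, Rbpj, Tbx18 and up to 4 genes with the largest mean ratio of each other list, besides markers too dim to test. The alternatives changed the background correction, the offset, the normalization, the filter, the probe rule, the names, the prior and the source of the values, and left out each array.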

Additional observations from a re-analysis of the deposited data

Results flagged for a closer look

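Myl1, a light chain of fast fibres, had a log2 ratio of -1.30 on array 1, labelled female, and of 0.71 on array 2, labelled male, so the arrays went in opposite directions. With 1 array of each kind this difference was not tested. Labelled sex, dye orientation and pair cannot be told apart, and the library labelled Rbpj-cKO on array 1 held Y-linked transcripts beside Xist, so the difference cannot be read as one between sexes. The second probe of the gene, at -0.48 and 0.11, had the same signs.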

How the results depend on the processing

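No separate paired analysis was run, because the test of ratios within arrays against 0 is already the paired one. No further block can be fitted. Ckm, Myh8 and Tnnc2 were at least 1.5-fold lower, and Mybpc1 at least as much higher, on both arrays under each of the 11 alternatives that used both arrays. The mean ratio of Mybpc1 ran from 1.86 to 2.51 and its limma adjusted p from 0.0613 to 0.577 over them. With the scanner's own log ratio the medians were -0.22 (fast), 0.25 (regulators) and -0.32 (common), and Mybpc1 exceeded the other slow genes by 2.62. With the authors' deposited table they were -0.19, -0.19 and -0.056, and the excess 2.61, so the regulators reversed. That reversal rests on -0.78 for Myod1 on array 2, since Myod1 on array 1 and Myog on both arrays are 0 in that table. Xirp1, one of the common genes, is also 0 on both arrays there. Myod1 turned to -0.39 there and to -0.16 with marked spots kept, an alternative chosen after seeing the data. The fast median was -0.27 with median centring and -0.25 without the filter on dim probes. Without that filter all 35 members were tested, dim ones included, and the embryonic and perinatal median was -0.14. Of the 35, 17 were lower on both arrays. The share of all genes was not counted there, so that number is not read as a result about the members. Trended and robust settings called 3 members. With 1 array left out, 1 to 2 members were at least 1.5-fold higher, Myl1 joining Mybpc1 without array 1. The share of all genes higher by as much on 1 array was not counted. The fast median was then -0.13 to -0.12. The cause of these shifts was otherwise not tested.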
